A study of Mus musculus with 2 samples.

Results

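Mixed epithelial and neural spots are spots of the second cerebellar section that held transcripts of the breast tumor epithelium and of neural tissue together. They were chosen by their own UMI counts. A member had at least 2000 UMIs, 500 to 5000 CPM of Epcam, Krt7 and Krt8 together, at least 1000 CPM of Mbp and Snap25 together, and less than 1000 CPM of Arg1. CPM are UMIs per 1000000 UMIs of the spot, and UMIs are counted transcript molecules. The rule took 314 of the 4017 spots under tissue in section 2, of 7423 spots in both sections. They were compared with 2 pure ends of the same section, an epithelial end of 735 spots at 5000 CPM or more of the 3 epithelial genes and a neural end of 2407 spots under 300 CPM. Any blend of both ends lies between them, so a gene was followed where its level in the mixed spots lay outside that range.

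The series holds 2 cerebellar sections of 5 µm, each from 1 biological replicate with a tumor grown from HP organoids and no treatment. HP stands for HER2 V777L with PIK3CA H1047R, and the sample titles name the organoids HP-F1 +cre for replicate 1 and HP-B6 +cre for replicate 2, whereas the cell line label gives B6-HP for both. Whether the organoids of section 1 differ in origin is not settled by these labels. By the methods, the organoids came from mammary tumors of C57BL/6J mice started with adenoviral Cre, carried a human HER2 transgene under an actin promoter behind a Lox-STOP-Lox element, and were luciferase-labeled with selection of clones. They were injected by stereotaxis into the cerebellum of syngeneic mice, which the methods describe as 5-month-old, so that the steps of spread through blood were bypassed. All mixed spots, and both ends, came from the 1 section of replicate 2, so there was no second animal behind any difference below and no test was made. Intervals are at the 95% level and cover counting error only.

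Where a carcinoma grows into brain, tumor cells, blood-derived macrophages, microglia and astrocytes meet in a narrow zone. Microglia are the resident macrophages of the brain, and in injury they and incoming macrophages take up lipid and myelin through programs that include Trem2, Apoe and Gpnmb. Astrocytes near injury take on a reactive state with secreted proteins such as Serpina3n, Lcn2 and complement C3.

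The mixed spots had 2000 to 65090 UMIs with a median of 13192, against medians of 41700 at the epithelial end and 10037 at the neural end. Their epithelial level had a median of 959 CPM, their Mbp and Snap25 level a median of 3444 CPM and their Arg1 level a median of 159 CPM. These values were set by the rule and are no finding. The epithelial call rested on few molecules, with 1 to 250 UMIs of the 3 genes per spot and a median of 12, and 122 mixed spots (38.9%) had fewer than 10. At 2000 UMIs the lower limit of 500 CPM is 1 UMI. On the epithelial level, the nearest spots were at 499 and 500 CPM around the lower limit and at 4985 and 5013 CPM around the upper limit. They lay at 980.3 and 1028 CPM for the neural genes, at 977 and 1000.1 CPM for Arg1 and at 1948 and 2000 UMIs for depth. Of the 571 spots with 500 to 5000 CPM of the epithelial genes, 165 were left out for Arg1 and 92 for low Mbp and Snap25.

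The rule used both markers of the label, so their levels are a description and no check of it. Krt7, a keratin of simple and glandular epithelium, was at 925 CPM in the pooled mixed spots, against 4158 CPM at the epithelial end and 25.9 CPM at the neural end. Snap25, a synaptic vesicle fusion protein of neurons, was at 640.0 CPM, against 21.95 CPM and 1970.0 CPM at those ends. Of 15 other epithelial genes tested, such as the tight junction gene Cldn7 and the keratin Krt19, the median was 0.922 of the level that a blend would give. Cldn7 was at 275 CPM in the mixed spots, 1262 CPM at the epithelial end and 11.7 CPM at the neural end. The genes of the list were not alike, as 3 of the 15 were at least 1.5-fold over the blend, against 10.4% of all genes. Besides Lcn2, described below, these were Krt5 and Krt14, keratins of basal epithelium, at 2.37 and 1.87 of the blend, while Tfcp2l1, an epithelial transcription factor, was at 0.582 of it. The sum over the list was 1.80 of the blend, with 3061 of 5489 CPM from Lcn2. From Epcam, Krt7 and Krt8, the epithelial end gave 22.5% of the UMIs of the pooled mixed spots, with 5.70% to 64.2% and a median of 11.7% by spot. A fraction set by least squares was 32.5%. All ratios to the blend given here use 22.5% and would change with the fraction.

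Mixed spots formed 63 patches of touching spots, of which 4 had at least 20 spots (97, 35, 31 and 23) and 35 were single spots. Another mixed spot was touched by 279 of them (88.9%), a spot of the neural end by 137 (43.6%), and a spot of the epithelial end by 49 (15.6%), while 1 touched both ends. Spots left out for their Arg1 level were touched by 74 mixed spots (23.6%). Of the contacts of mixed spots with spots of other classes, 13.4% were with these spots, which made up 4.46% of all other spots. The epithelial end took 11.3% of the contacts and made up 19.8% of the other spots, and the neural end took 39.0% and made up 65.001%. The distance to the nearest spot of the epithelial end was 1 to 44 array steps with a median of 4, where 1 step leads to a neighboring spot. Within 3 steps lay 125 mixed spots (39.8%), and 57 lay more than 10 steps away. The epithelial region reached the edge of the array, so tumor beyond the edge does not enter these distances.

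**Figure D1:**
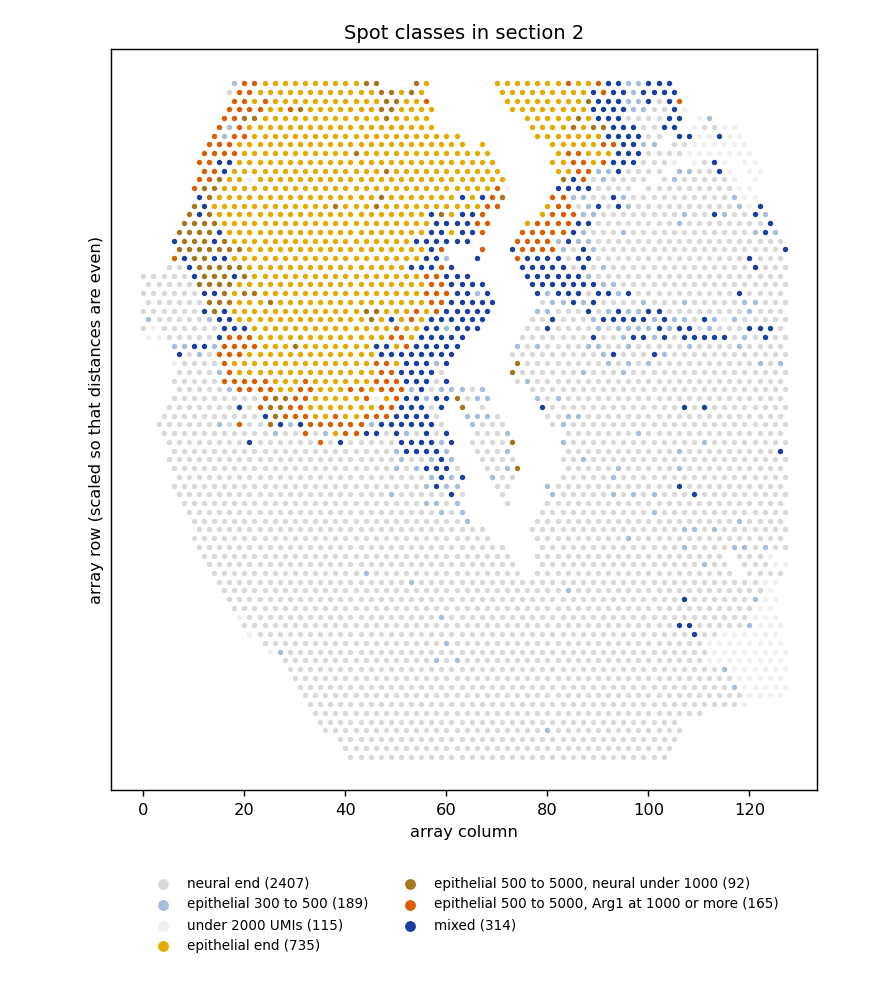
Position of each spot of section 2 on the array, colored by class with the number of spots in brackets (CPM limits refer to Epcam, Krt7 and Krt8 together, to Mbp and Snap25 together for "neural", and to Arg1). The 314 mixed spots (dark blue) lie mainly along the right and lower right border of the larger epithelial region, beside the smaller region at the top and in a thin band to its right, with fewer on the left border and single spots among the neural end.

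Most genes in the mixed spots lay between the ends, and a minority lay above both. Of 11494 genes with a mean of at least 10 CPM over the 3 groups, 7845 (68.3%) were between the ends. This mean includes the mixed spots, so a gene low at both ends could be tested through its level in the mixed spots. Igha, Mmp3, Gbp4, Adgre1, Ccr2 and Plac8, each under 10 CPM at both ends, entered in this way. So did Igkc and Cd36, which were over 10 CPM at the neural end alone. Adgre1, Cd36 and Gbp4 count below among the passing genes of the macrophage, lipid-laden macrophage and interferon lists. The filter thus favors genes above both ends. At least 1.5-fold over the higher end were 479 genes, which is 4.17% of those tested, and 213 of them were at least 2-fold over it. The median of all genes tested was a log2 ratio of -0.42 to the higher end. At least 1.5-fold under the lower end were 45 genes (0.392%). Against the blend at 22.5%, 1196 genes (10.4%) were at least 1.5-fold higher, a count that depends on the fraction. The counting interval of the ratio lay above 1 for all 479 genes. The limits on ratio and level left almost no room for another outcome, so this is no support for them. Leaving out, for each gene, the 3 mixed spots with most of its UMIs left 422 of the 479 at 1.5-fold or more.

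**Figure D2:**
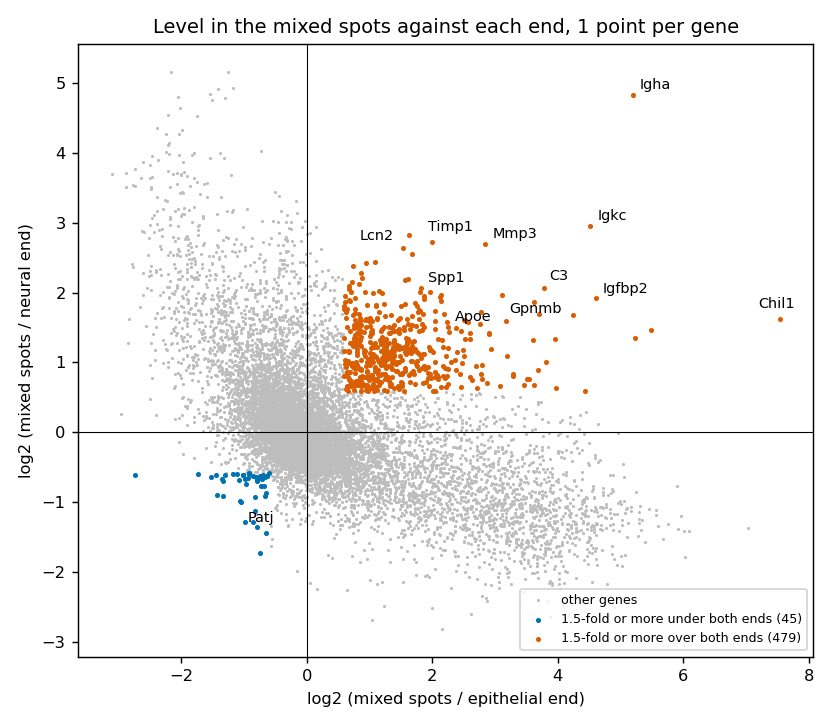
Each point is 1 gene, with the log2 ratio of pooled CPM in the mixed spots to the epithelial end on the x axis and to the neural end on the y axis. Orange points are the 479 genes at least 1.5-fold over both ends, blue points the 45 genes at least 1.5-fold under both, and Igha, Igkc, Mmp3, C3 and Timp1 stand farthest above both ends among the labeled genes.

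Genes of macrophages and of lipid handling stood above both ends. Of 19 tested genes of the list for lipid-laden macrophages and lysosomes, 16 were at least 1.5-fold over the higher end, with a median ratio of 2.18, against 4.17% of all genes. Of 12 macrophage genes, 8 passed, with a median of 1.87. The lists share genes such as Spp1, Gpnmb and Apoe and are not independent of each other.

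Spp1, which encodes the secreted phosphoprotein osteopontin, was at 5471 CPM in the mixed spots, 1551 CPM at the epithelial end and 1305 CPM at the neural end. Its ratio to the higher end was 3.53 (interval 3.47 to 3.58), and by mixed spot it ran from 0 to 34366 CPM with a median of 3687 CPM. Gpnmb, a glycoprotein of phagocytes loaded with lipid, was at 829 CPM against 95.6 and 212 CPM, a ratio of 3.91 (3.75 to 4.07). Gpnmb was uneven between spots, with 174 of the 314 above the level of the higher end and a single spot holding 6.50% of its UMIs. Apoe, the main lipid carrier made by glia and macrophages, was at 7731 CPM against 1627 and 2707 CPM, and 262 mixed spots were above the higher end. Cd68, a lysosomal protein of macrophages, was at 436 CPM against 129 and 124 CPM, a ratio of 3.38 (3.21 to 3.57). Trem2, a lipid-sensing receptor of microglia and macrophages, was at 225 CPM against 46.5 and 83.2 CPM, and its partner Tyrobp at 341 CPM against 109 and 123 CPM. The cathepsins Ctsb, Ctsl, Ctsz and Ctsd, proteases of the lysosome, had ratios of 2.29, 2.18, 1.81 and 1.95. Not every macrophage gene followed. Lgals3, which the tumor epithelium also expressed, was at 716 CPM in the mixed spots and 1135 CPM at the epithelial end, and Cd14 was at 82.1 CPM and 138 CPM.

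These genes were not highest in the mixed spots of the whole section. In the 165 spots that the Arg1 limit left out, Spp1 was at 15347 CPM, Gpnmb at 2021 CPM and Apoe at 10953 CPM, and the macrophage list summed to 37073 CPM against 18493 CPM in the mixed spots. In the 37 spots of the neural end within 3 steps of the epithelial end, the same sum was 49293 CPM. Arg1 itself was at 309 CPM in the mixed spots, 356 CPM at the epithelial end and 48.3 CPM at the neural end. The limit of 1000 CPM on Arg1 held for the mixed spots and not for the ends. With this limit, 681 spots of the epithelial end remained. Among them, Arg1 was at 285 CPM at an epithelial level of 5000 to 10000 CPM and at 305 CPM above that. The order of the mixed spots and the epithelial end for Arg1 thus depended on the limit. Among single mixed spots, the macrophage sum ran from 928 to 101926 CPM with a median of 14287 CPM, and 297 of 314 were above the median spot of the neural end and 272 above that of the epithelial end. Within a spot, more cells of a type and more RNA per cell cannot be told apart.

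Complement genes were higher throughout the list. All 11 tested complement genes passed, with a median ratio of 2.46, against 4.17% of all genes. C3, the central protein of the cascade, was at 436 CPM against 31.7 CPM at the epithelial end and 104 CPM at the neural end, a ratio of 4.21 (3.98 to 4.45). A UMI of C3 was found in 262 mixed spots, and 238 were above the higher end. C1qa, C1qb and C1qc, the chains of the recognition protein C1q made mainly by microglia and macrophages, were at 1474, 840 and 1242 CPM, with ratios of 2.74, 2.46 and 2.56. The receptors C3ar1 and C5ar1 had ratios of 2.53 and 1.81, the receptor chains Itgam and Itgb2 2.22 and 2.56, and the inhibitor Serping1 1.68. The complement list was not highest in the mixed spots, where it summed to 5551 CPM. It summed to 6536 CPM in the spots left out for Arg1. In the 37 spots of the neural end within 3 steps of the epithelial end, it summed to 9937 CPM. C3 differed from the macrophage genes in the spots left out for Arg1, where it was at 168 CPM.

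Of 10 microglia genes, 6 passed, against 4.17% of all genes, with a median of 1.57. Among them, Fcrls, Tmem119, Cx3cr1, P2ry13 and Csf1r had ratios of 2.68, 1.77, 1.51, 1.78 and 1.63. Tmem119, a membrane protein of resident microglia, was at 50.3 CPM against 22.5 and 28.4 CPM. P2ry12 and Siglech, which mark microglia at rest, did not pass, with 43.4 and 17.0 CPM in the mixed spots against 55.2 and 28.7 CPM at the neural end. This count depended on which neural spots were taken: with neural spots within 5 steps of a mixed spot, 1 of 10 passed, with a median of 1.18, where 323 of 11474 genes passed in all.

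Genes of antigen presentation were mostly a little above both ends. Of 17 tested, 16 were over the higher end, against 1774 of all 11494 genes, and 6 passed 1.5-fold, against 4.17%, with a median of 1.36. Ctss, a protease that trims the class II chaperone, was at 1133 CPM against 317 and 412 CPM, a ratio of 2.75. B2m, the light chain of class I molecules, was at 2049 CPM against 1393 and 845 CPM, and H2-D1 at 786 CPM against 612 and 295 CPM, ratios of 1.47 and 1.28 under the limit. Of the class II genes, H2-DMa, H2-DMb1 and H2-Eb1 passed at 1.68, 2.27 and 1.62, at levels of 24.9 to 40.9 CPM. With both ends within 5 steps of a mixed spot, these ratios were 1.45, 1.99 and 1.40. Cd74, H2-Aa and H2-Ab1 did not pass, at 275, 71.0 and 56.8 CPM with ratios of 1.16, 1.31 and 1.46. The whole list summed to 5482 CPM in the mixed spots and 7171 CPM in those left out for Arg1. In the 37 spots of the neural end within 3 steps of the epithelial end, it summed to 9194 CPM. Cd274, which encodes the checkpoint ligand PD-L1, was at 56.0 CPM against 12.7 and 15.1 CPM, a ratio of 3.70 (3.16 to 4.32), with UMIs in 142 of 314 spots.

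Interferon genes were split. Of 23 tested, 7 passed, namely Ifit1, Ifit2, Ifit3, Ifi27l2a, Gbp4, Gbp6 and Iigp1, against 4.17% of all genes, and the list had a median of 1.09. Ifit2, an RNA-binding protein induced by interferon, was at 111 CPM against 26.7 and 33.1 CPM, a ratio of 3.34 (3.0002 to 3.73). Iigp1, a GTPase induced by interferon gamma, was at 60.1 CPM against 10.6 and 19.8 CPM. Others were highest at the epithelial end, as Bst2 at 350.4 CPM against 407 CPM, and Oasl2 at 299 CPM against 387 CPM. Against the blend, 22 of the 23 were at least 1.5-fold higher, where 10.4% of all genes were.

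**Figure D3:**
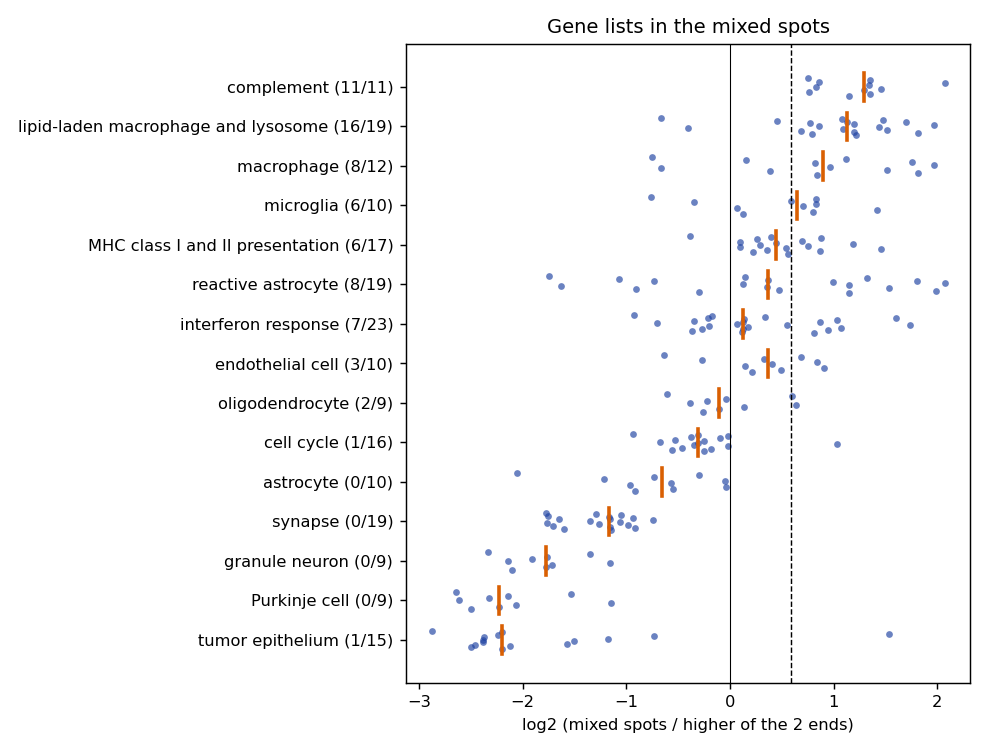
Log2 ratio of pooled CPM in the mixed spots to the higher of both ends, with 1 point per tested gene, an orange bar at the median of the list and a dashed line at 1.5-fold; brackets give genes past 1.5-fold over genes tested. All 11 complement genes and 16 of 19 genes for lipid-laden macrophages lie right of the dashed line, while no synapse, granule neuron or Purkinje cell gene does.

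Spot by spot, the ranges of the mixed spots and of both ends overlapped for the complement, antigen presentation and interferon lists. The complement sum ran from 0 to 16028 CPM over the mixed spots with a median of 5521 CPM, against medians of 1277 CPM at the epithelial end and 1302 CPM at the neural end. Above each of these medians lay 293 of the 314 mixed spots. For antigen presentation the mixed spots had a median of 5287 CPM, and 249 were above the median of the epithelial end and 296 above that of the neural end. The interferon sum had a median of 2203 CPM, with 217 mixed spots above the median of the epithelial end at 1747 CPM and 300 above that of the neural end at 512 CPM. In the 165 spots left out for Arg1, the medians were 6002 CPM for complement, 6922 CPM for antigen presentation and 2020 CPM for interferon. Above these medians lay 131, 63 and 188 of the 314 mixed spots. The highest single spots for complement and for interferon lay in the ends, at 22174 CPM in the neural end and 20138 CPM in the epithelial end. The excess was thus one of most mixed spots and not of a level outside the range of the ends. Of single genes, Apoe ran from 148 to 32019.7 CPM with a median of 6059 CPM, and C1qa from 0 to 5512 CPM with a median of 1378 CPM and 261 spots above the higher end. C3 ran to 2510.1 CPM with a median of 374 CPM, and Timp1 to 2331 CPM with a median of 108 CPM and 206 spots above the higher end.

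Secreted and reactive astrocyte genes gave some of the highest levels above both ends. Of 19 reactive astrocyte genes 8 passed, against 4.17% of all genes, with a median of 1.29. Over the higher end were 13 of the 19, against 1774 of all 11494 genes. The rest lay below it, down to Tnc at a ratio of 0.297. The astrocyte list itself gave no such excess. Of its 10 genes 0 were over the higher end, a count near the share of all genes. Its median ratio was 0.637, a log2 ratio of -0.65 against -0.42 for all genes tested. Its sum was 0.835 of the blend. Igfbp2, Chil1, Saa3 and Mmp3, given below, are not in the reactive astrocyte list. Gfap, the intermediate filament of astrocytes, did not pass, with 3540 CPM in the mixed spots and 4357 CPM at the neural end. Serpina3n, a protease inhibitor, was at 1514 CPM against 125 and 604 CPM, a ratio of 2.51 (2.44 to 2.58). Lcn2, an iron-siderophore carrier made by inflamed epithelium and glia, was at 3061 CPM against 1054 and 490 CPM, a ratio of 2.90 (2.85 to 2.96). Unlike the other genes of the epithelial list, Lcn2 was thus above both ends. Timp1, an inhibitor of metalloproteinases, was at 193 CPM against 48.6 and 29.4 CPM, a ratio of 3.98 (3.66 to 4.32). Igfbp2, a binding protein of insulin-like growth factors, was at 1372 CPM against 56.5 and 363 CPM, and Chil1, a secreted chitinase-like protein, at 1491 CPM against 8.03 and 485 CPM, with ratios of 3.78 and 3.08. Saa3, an acute-phase protein, was at 154 CPM against 8.16 and 48.1 CPM. Mmp3, a matrix metalloproteinase, was at 42.3 CPM against 5.90 and 6.53 CPM, a ratio of 6.48 (5.28 to 7.96), with UMIs in 90 spots. The median mixed spot held 1317 CPM of Serpina3n, 2552 CPM of Lcn2 and 983 CPM of Igfbp2, but 500.2 CPM of Chil1 and none of Mmp3.

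Immunoglobulin and hemoglobin transcripts came from few of the mixed spots. Igha, the heavy chain of IgA, was at 79.2 CPM in the pooled mixed spots against 2.16 and 2.78 CPM, a ratio of 28.5 (22.3 to 36.8), the largest among the genes named. It was tested only through its level in the mixed spots. Its UMIs came from 52 spots, 23.5% of them from 1 spot, and without the 3 spots with the most the ratio was 13.5. Igkc, the kappa light chain, was at 81.3 CPM against 3.54 and 10.5 CPM, with UMIs in 61 spots and a ratio of 7.75, or 5.06 without 3 spots. Igkc too was tested only through its level in the mixed spots. Ighm, the heavy chain of IgM, was at 13.2 CPM against 21.5 CPM at the neural end, and no T or NK cell gene of 12 reached the level for testing. Hbb-bs, a hemoglobin chain of red cells, was at 75.02 CPM against 24.1 and 10.6 CPM, with UMIs in 73 spots and a ratio of 3.11, or 2.19 without 3 spots. Probes of related immunoglobulin or hemoglobin genes could share molecules. By patch, Igha was at 194 CPM in the patch of 97 spots, at 0 in that of 35 and at 5.50 and 18.3 CPM in those of 31 and 23. Hbb-bs was at 526 CPM in the patch of 31 spots and at 6.70 to 41.7 CPM in the others of 20 spots or more.

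Other programs gave few genes above both ends, and each count of genes that passed stands against 4.17% of all genes. Of 10 endothelial genes 3 passed (Cldn5, Esam and Vwf, with ratios of 1.88, 1.60 and 1.79). Of 16 cell cycle genes only the inhibitor Cdkn1a passed, at 127 CPM against 62.1 and 55.1 CPM. Against the blend, 14 of 16 were at least 1.5-fold higher, where 10.4% of all genes were, with a median of 2.29. Cdk1, the mitotic kinase, was at 121 CPM against 150.0 and 18.0 CPM, and Mki67, a marker of dividing cells, at 110 CPM against 152 and 13.7 CPM. Proliferation genes in the mixed spots were therefore nearer the epithelial end than the 3 genes of the rule were. A count of 1 of 16 or 0 of 14 is near the share of all genes. None of 14 TGF-beta genes passed, and 2 of 18 genes for EMT and migration did. Fn1 and Tnc, matrix glycoproteins, were at 1232 and 891 CPM against 2691 and 2996 CPM at the epithelial end. Of 15 chemokine and cytokine genes 5 passed, and Ccl5 and Ccl8, which attract T cells and monocytes, had ratios of 2.19 and 2.30. With both ends within 5 steps of a mixed spot, these 2 ratios were 1.24 and 1.42, under the limit. The list summed to 1166 CPM in the mixed spots and to 2739 CPM in the spots left out for Arg1. Il34, a ligand of CSF1R, was at 33.9 CPM against 65.1 CPM at the epithelial end and 20.9 CPM at the neural end, and Csf1r itself passed at 1.63. Hmox1, the heme-degrading enzyme, was at 335 CPM against 155 and 95.1 CPM, a ratio of 2.16, and at 1896 CPM in the spots left out for Arg1. Vim, an intermediate filament of mesenchymal and glial cells, was at 1931 CPM against 971 and 628 CPM and passed together with S100a4, a calcium-binding protein. Of 17 genes of axon injury 2 passed, Gadd45a at 147 CPM against 49.0 and 67.4 CPM and Sox11 at 55.1 CPM against 24.3 and 28.3 CPM. Sox11 was not above the higher end once every spot was thinned to 2000 UMIs. Vegfa was at 96.6 CPM against 267 and 71.8 CPM and did not pass.

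Neuronal genes were lower than a blend of the whole ends would give. The granule neuron list summed to 785 CPM, 0.372 of the blend, the Purkinje cell list to 1453 CPM, 0.336 of it, and the synapse list to 2009 CPM, 0.509 of it. Pvalb, a calcium buffer of Purkinje cells and interneurons, was at 700 CPM against 2022 CPM at the neural end, and Car8, a Purkinje cell protein, at 189 CPM against 884 CPM. The brainstem and projection neuron list was lower too, with 1438 CPM against 3112 CPM at the neural end, 0.592 of the blend. These ratios depend on the neural spots taken. In neural spots within 5 steps of a mixed spot, Pvalb was at 1314 CPM and Car8 at 404 CPM, nearer to the mixed spots. Cbln1, a granule neuron gene, was at 285 CPM there, against 195 CPM in the mixed spots and 664 CPM at the whole neural end. Nefl, of the projection neuron list, went the other way, at 1352 CPM against 1164 CPM. Oligodendrocyte genes without Mbp were at 1.05 of the blend, and Cldn11 and Sox10 passed at 1.51 and 1.56. Choroid plexus signal was local, as Ttr, the thyroid hormone carrier made there, ran to 93484 CPM in 1 mixed spot with a median of 74.2 CPM.

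Genes below both ends were few and their differences small. Patj, a scaffold of cell polarity, was at 118 CPM against 247 and 233 CPM, a ratio of 0.509 to the lower end. Kalrn, a guanine nucleotide exchange factor, was at 37.9 CPM against 67.1 and 72.2 CPM, and Tcf20, a transcriptional coregulator, at 143 CPM against 247 and 231 CPM. Tacc2, Arhgap5, Rab3ip, Ptpru and Zfp827 had ratios of 0.600 to 0.627 to the lower end. None of the 45 was 2-fold under.

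Along the epithelial level, most of the 479 genes peaked inside the window and not at its edges. All bins held spots with less than 1000 CPM of Arg1, and those from 500 to 5000 CPM held the mixed spots alone. The 92 spots left out for low Mbp and Snap25 were thus in no bin, whereas the ends had no such limit. Part of a peak or drop along the bins can come from this change in selection, which was not tested. Of the 479 genes, 276 were highest at 1000 to 2000 CPM of the 3 epithelial genes and 98 at 500 to 1000 CPM. Another 70 were highest at 2000 to 5000 CPM and 33 at 300 to 500 CPM. Membership in the 479 favors such a peak, so these counts are a description. Gpnmb was at 185 CPM in the bin of 300 to 500, 491 CPM at 500 to 1000, 1304 CPM at 1000 to 2000, 890 CPM at 2000 to 5000 and 83.0 CPM at 5000 to 10000. Chil1 was at 1476, 2420, 1828, 215 and 7.93 CPM in the same bins. C3 was at 381, 567, 517, 233 and 32.6 CPM. Chil1 and C3 thus were highest at a lower epithelial level than Gpnmb, Spp1 and Apoe, whose highest bin was 1000 to 2000.

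**Figure D4:**
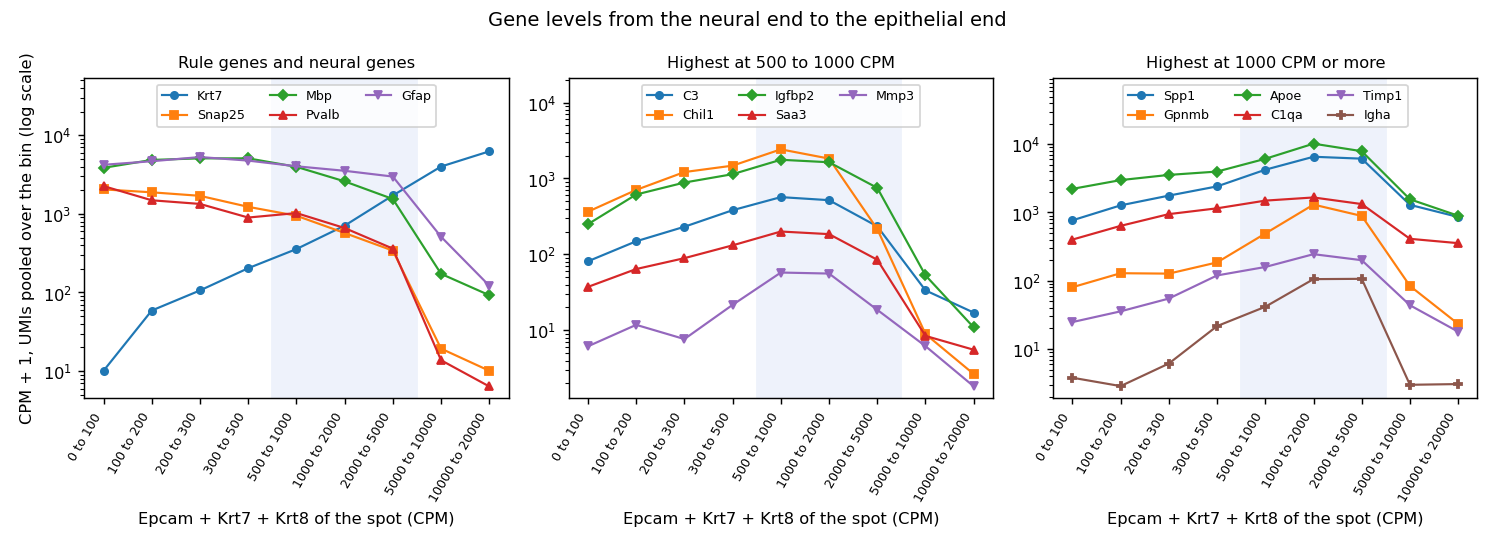
Pooled CPM plus 1 on a log axis against the summed CPM of Epcam, Krt7 and Krt8 of the spot, in bins of spots with less than 1000 CPM of Arg1; shading marks the bins of the mixed spots. Krt7 climbs and the neuronal genes drop from left to right, C3, Chil1, Igfbp2, Saa3 and Mmp3 are highest at 500 to 1000, and Spp1, Gpnmb, Apoe, C1qa and Timp1 at 1000 to 2000.

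Levels also differed with distance from the epithelial end. The rule did not use distance, but the epithelial end is set by the same 3 epithelial genes. Gpnmb was at 1074 CPM in the 49 mixed spots at 1 step, 1207 CPM at 2 to 3 steps, 653 CPM at 4 to 6, 184 CPM at 7 to 10 and 84.1 CPM beyond 10. Spp1 was at 6399, 7158, 5328, 2698 and 983 CPM over the same distances. Spp1 and Gpnmb were thus highest within 3 steps. Chil1 was at 108, 845, 3444, 3131 and 988 CPM, C3 at 270.4, 325, 696, 833 and 219 CPM, and Lcn2 at 2068, 2881, 4936, 4263 and 723 CPM. Chil1, C3 and Lcn2 were highest at 4 to 10 steps, although Lcn2 had its highest bin of epithelial level at 1000 to 2000 CPM, as Spp1 and Gpnmb did. Igha was at 40.1, 165, 82.2, 4.37 and 2.101 CPM. Over the same distances the share of UMIs from the epithelial end was 39.9%, 23.3%, 12.2%, 10.1% and 8.82%. The median depth was 25210.0, 16831, 12985, 10619 and 8287 UMIs. Distance was thus tied to epithelial level and to depth, and the part of either in these differences was not tested.

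**Figure D5:**
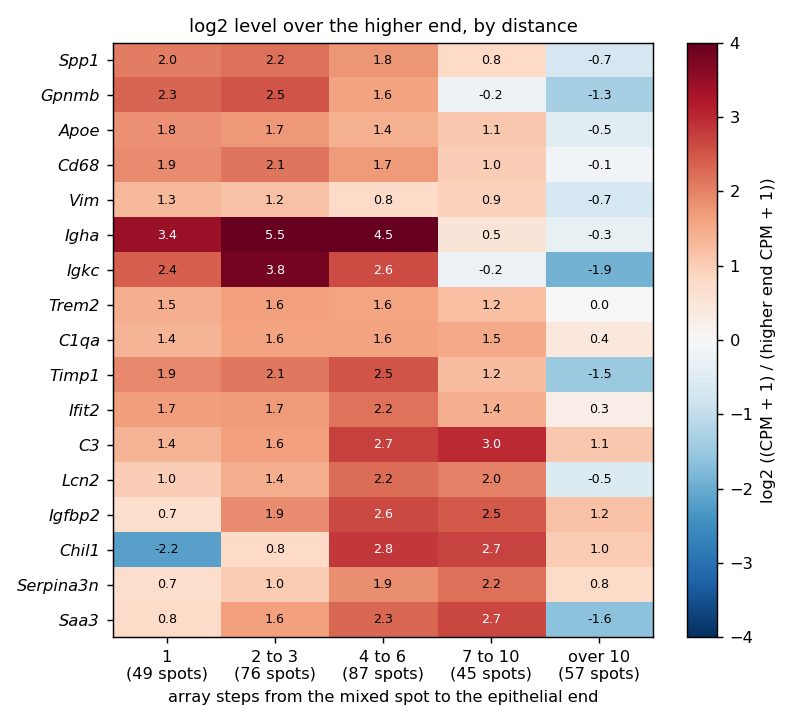
Log2 ratio of pooled CPM plus 1 in the mixed spots at each distance (columns, array steps to the nearest spot of the epithelial end) to the higher of both ends, for 17 genes (rows). Spp1, Gpnmb and Apoe are highest at 1 to 3 steps, C3, Chil1, Serpina3n and Saa3 at 4 to 10 steps, and most genes are near or below 0 beyond 10 steps.

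The mixed spots far from the epithelial end were unlike the rest. In the 57 spots beyond 10 steps, 82 of the 479 genes were at least 1.5-fold over the higher end, against 355 to 448 in the other 4 distance groups. These spots had a median of 6 UMIs of the epithelial genes, and Epcam, Krt7 and Krt8 summed to 98, 182 and 72 UMIs in them. Their macrophage list summed to 4218 CPM, under the 5459 CPM of the whole neural end. Spots of the neural end at 11 to 20 steps had 4389 CPM and those beyond 20 steps 2421 CPM, so the far mixed spots were not low for their distance. The oligodendrocyte list of the far mixed spots summed to 10917 CPM, over the 6332 CPM of the neural end. Igfbp2 at 820 CPM, C3 at 219 CPM and Chil1 at 988 CPM were still above both whole ends there. In spots of the neural end at 11 to 20 steps, these 3 genes were at 620, 128 and 728 CPM. Beyond 20 steps they were at 77.1, 18.1 and 58.4 CPM. In the 4 patches of 20 spots or more, 322 to 431 of the 479 genes were at 1.5-fold or more, and 364 in the smaller patches. Patches differed in kind, as Chil1 was at 5787 CPM in the patch of 35 spots and 168 CPM in that of 23, where Apoe was at 4414 and 12019 CPM.

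The size of the excess depended on the neural tissue taken as the end. With the neural end limited to the 1083 spots within 5 steps of a mixed spot, 323 genes were at least 1.5-fold over the higher end, 312 of them among the 479. With both ends limited in that way, 284 genes were, 269 of them among the 479. All 101 named genes past 1.5-fold stayed over the higher end in both settings, 72 and 66 of them at 1.5-fold or more. With both ends near, the ratio was 2.33 for Spp1, 1.93 for Gpnmb, 2.40 for C3, 3.08 for Lcn2, 1.68 for Chil1, 3.03 for Timp1 and 18.3 for Igha. Of the lists, 7 of 11 complement genes and 9 of 19 genes for lipid-laden macrophages passed. Neural spots close to the tumor themselves had more of these transcripts: Chil1 was at 1576 CPM in the neural end at 7 to 10 steps from the epithelial end and 58.4 CPM beyond 20 steps, and Lcn2 at 1505 and 25.4 CPM.

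Section 1 had no mixed spot by the same rule. None of its 3164 spots with at least 2000 UMIs reached the epithelial end, 13 reached 300 CPM, and the highest spot had 454 CPM of Epcam, Krt7 and Krt8. Pooled, these genes were at 24.4 CPM there. The sections share 3096 of their barcodes, which mark positions on the array and not cells.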

How the data were processed

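Formalin-fixed sections of 2 replicates were profiled with Visium CytAssist probes. Per the submitters' processing notes, the authors used Space Ranger 2.1.1 and mm10. The authors deposited UMI counts that had not been normalized, for each spot under tissue and 19465 probe-panel genes (11 symbols occur more than once and were kept as separate entries).

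Group levels were UMIs summed over spots, per 1000000 UMIs (4772054 in the mixed spots, 30520052 and 28028585 at the ends). Genes with a mean of at least 10 CPM over the 3 groups were compared, and a ratio to the higher end of 1.5 was used as the limit. Intervals were exact (Poisson for levels, Clopper-Pearson for ratios). The mixing fraction came from Epcam, Krt7 and Krt8. Genes of the rule were left out of the 36 gene lists. Calculations used Python 3.11.15, numpy 2.4.6, scipy 1.17.1 and pandas 2.3.3, and were tested on simulated data. The genes named were those of the rule, the 25 with the largest ratio to the higher end and the 8 with the lowest ratio to the lower end (each at 50 CPM or more), list members past 1.5-fold or among the 3 highest of a list, and genes the study names from its spatial data. P2ry12, Siglech, Cldn7, Krt19, Krt5, Krt14, Tfcp2l1, Cd14, Lgals3, Cd74, H2-Aa, H2-Ab1 and Mki67 fall outside these rules and were chosen after their values were seen. The members and lists were chosen with earlier results of these data known. With 1 section there are no replicates and no p-value. Alternatives changed the ends, the limits, the pooling and the depth. Some genes are not reported here.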

Additional observations from a re-analysis of the deposited data

How the results depend on the processing

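The count of genes at least 1.5-fold over the higher end was 479, and lay within 1.5 times that value in the other settings, except for 727 with a minimum mean of 3 CPM, 213 at a fold of 2 and 284 with both ends within 5 steps of a mixed spot. The first 2 follow from testing more genes and from the stricter fold. The count below both ends was 45. It was 19 with the neural end within 5 steps, 102 with members of 1000 to 3000 CPM, 334 with spots thinned to 2000 UMIs, 0 at a fold of 2, 23 outside the largest patch and 17 with both ends near, and the cause was not tested. The count over the blend was 1196, and 512 at a fold of 2. Among lists, 7 had a median of 1.5-fold or more, and 5 to 9 in the other settings. Among named genes, Sox11 alone changed direction, with a log2 ratio of -0.084 after thinning. Of 101 named genes past 1.5-fold, 66 to 101 stayed at 1.5-fold or more in each setting with the same fold. Members with at least 10 epithelial UMIs, members within 3 steps, members outside the largest patch, both ends near and leaving out 3 spots per gene were chosen after seeing the data. No paired analysis was possible because all spots came from 1 section. Depth limits genes of few UMIs and the epithelial level of single spots.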
